A study of Mus musculus with 3 samples.

Results

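The genes described here are 10 heterogeneous nuclear ribonucleoproteins (hnRNPs), chosen by symbol: Hnrnpa1, Hnrnpa2b1, Hnrnpc, Hnrnpd, Hnrnpdl, Hnrnph1, Hnrnpk, Hnrnpl, Hnrnpll and Hnrnpu. They are 10 of 55536 annotated genes in the tables, and 130 of 141767 annotated isoforms belong to them. The cells were macrophages grown from bone marrow of C57BL/6J mice and given lipid A, the part of bacterial endotoxin that TLR4 senses, at 100 ng/ml for 120 min, and RNA was taken from their chromatin fraction. After ribosomal RNA depletion it was sequenced as total RNA in 3 libraries, labelled biological replicates 1, 2 and 3, which form a single group. Unstimulated cells and other fractions were not analysed here, so no value below is a response to lipid A. The libraries share a donor label and no source gives separate cultures, so the spreads and p-values below measure variation among 3 libraries that may be technical only.

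hnRNPs bind RNA as it is made and decide, among other things, which splice sites are used. Many of them bind their own transcripts: when the protein is abundant, splicing shifts to an isoform that keeps an intron or gains an early stop codon, and less protein is made. Nonsense-mediated decay (NMD) is the cytoplasmic pathway that removes mRNAs whose stop codon lies well upstream of an exon junction. RNA on chromatin includes transcripts that are still being made or spliced, and an unfinished precursor cannot be told apart here from a finished isoform that keeps the same intron.

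Expected counts per library were 19919358, 20430415 and 22023921 in replicates 1, 2 and 3, from 1 µg, 250 ng and 500 ng of starting RNA. All 10 listed macrophage markers averaged at least 1 TPM (a relative level scaled by transcript length). Of 38 markers of 8 other cell types, 3 did so: Cd4 at 3.47 TPM, Kdr at 4.54 TPM and Alas2 at 1.85 TPM. The 38 markers together summed to 11.6, 17.2 and 12.6 TPM, and 10 of them were at 0 in all libraries. The macrophage markers summed to 480, 1559 and 370 TPM in replicates 1, 2 and 3. Replicate 2 stood apart in these and in RNAs typical of the cytoplasm. The median of 13 mitochondrially encoded genes was 32.2, 246 and 23.0 TPM in replicates 1, 2 and 3, and that of 102 cytosolic ribosomal protein genes was 11.6, 41.6 and 12.1 TPM. The median of the 10 hnRNP genes was 66.5, 73.8 and 85.8 TPM, so it was not highest in replicate 2. The part of this difference in the results below was not tested, and calls on isoform classes of the 10 genes that are lost without replicate 2 are named.

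All 10 hnRNP genes were abundant. In bulk RNA such as this, fewer cells of a type and less RNA per cell cannot be told apart. Each gene reached at least 10 TPM in every library, a level that 14.3% of the 22028 protein-coding genes reached. Their median level of 77.8 TPM compares with 7.53 TPM over the 9143 protein-coding genes that averaged at least 1 TPM. The highest mean was 9.50 times the lowest. On build mm10 the genes lie on 9 chromosomes, with Hnrnpd (chr5:99955935-99978938) and Hnrnpdl (chr5:100033577-100039664) close together on the minus strand of chromosome 5. The plus strand carries Hnrnpa1 (chr15:103240432-103246692), Hnrnph1 (chr11:50376990-50386528) and Hnrnpl (chr7:28808541-28822266). The minus strand carries Hnrnpa2b1 (chr6:51460932-51469894), Hnrnpc (chr14:52073377-52104028), Hnrnpk (chr13:58391142-58403343), Hnrnpll (chr17:80029487-80062334) and Hnrnpu (chr1:178321108-178337797).

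The core particle proteins spanned most of that range. Hnrnpa2b1, which with Hnrnpa1 and Hnrnpc packages nascent RNA, had 241.1, 296.4 and 321.5 TPM in replicates 1, 2 and 3, or 286.3 ± 41.1 TPM (SD, n = 3), and ranked 79th among protein-coding genes. Hnrnpa1, a splicing repressor that antagonises SR proteins, had 50.6, 46.4 and 49.9 TPM, or 48.9 ± 2.26 TPM. Hnrnpc, which binds uridine tracts, had 38.1, 54.6 and 61.2 TPM, or 51.3 ± 11.9 TPM, with rank 917. All 3 libraries of Hnrnpa2b1 lay above every library of the other two genes, while those of Hnrnpc and Hnrnpa1 overlapped.

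Another 3 members lay between these values. Hnrnpk, which binds cytidine-rich RNA through KH domains, had 132.6, 142.1 and 146.7 TPM (140.5 ± 7.20). Hnrnph1, which binds runs of guanines, had 107.9, 107.0 and 142.8 TPM (119.2 ± 20.4). Hnrnpu, the scaffold attachment factor that binds both chromatin and RNA, had 73.5, 88.4 and 93.4 TPM (85.1 ± 10.3). These 3 genes stood above the median of the 10 in every library.

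Hnrnpl and Hnrnpll, which bind CA-rich RNA and control exon choice in the leukocyte phosphatase gene Ptprc, had similar levels. Hnrnpll had 77.9, 73.7 and 104.6 TPM (85.4 ± 16.8), and Hnrnpl had 59.5, 73.9 and 78.2 TPM (70.5 ± 9.83). Hnrnpdl had 56.1, 53.3 and 75.3 TPM (61.58 ± 11.96), and Hnrnpd, also called AUF1 and known for binding the AU-rich elements of cytokine mRNAs, had 31.3, 25.7 and 33.4 TPM (30.1 ± 4.01). Hnrnpd had the lowest mean of the 10 genes and ranked 1610th among protein-coding genes.

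**Figure D1:**
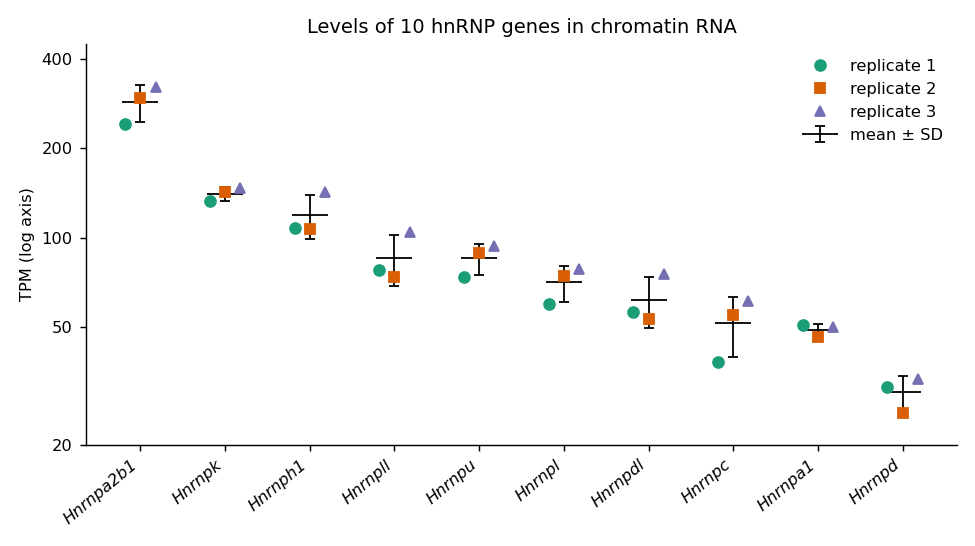
Level of each hnRNP gene (TPM, log axis) in replicates 1, 2 and 3, with a bar for the mean and its SD (n = 3); genes run from the highest to the lowest mean. Hnrnpa2b1, at 286.3 TPM, stands clear of Hnrnpk at 140.5 TPM, and Hnrnpd is lowest at 30.1 TPM.

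In order of mean TPM the genes ran Hnrnpa2b1, Hnrnpk, Hnrnph1, Hnrnpll, Hnrnpu, Hnrnpl, Hnrnpdl, Hnrnpc, Hnrnpa1 and Hnrnpd. Neighbours were taken to differ beyond their spread where the log2 difference had 1 sign in all libraries and a mean above its SD. By this rule 5 of 9 neighbouring pairs differed. Hnrnpll and Hnrnpu, Hnrnpl and Hnrnpdl, Hnrnpdl and Hnrnpc, and Hnrnpc and Hnrnpa1 did not.

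The members of closest sequence were compared within libraries. Hnrnpa2b1 was 5.80-fold higher than Hnrnpa1, a log2 difference of 2.54 ± 0.25 (SD, n = 3) with the same sign in 3 of 3 libraries. Hnrnpdl was 2.03-fold higher than Hnrnpd, by 1.02 ± 0.17 on the log2 scale in 3 of 3 libraries. Hnrnpll exceeded Hnrnpl by 0.27 ± 0.24, with 2 of 3 libraries in that direction. The exact two-sided sign-flip p-values were 0.25, 0.25 and 0.5, or 0.375, 0.375 and 0.5 after Benjamini-Hochberg adjustment over the 3 pairs. With 3 libraries no p-value below 0.25 is possible, so none of these comparisons could pass 0.05. The Hnrnpdl difference was 0.03 with the other quantifier, a table the authors made directly from the reads, and the Hnrnpll difference was 1.71 on counts not divided by length. Aligned coding sequences of the 3 pairs were 72.7%, 69.2% and 64.5% identical, and whether reads were divided between the genes of a pair was not tested.

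For 6 of the 10 hnRNP genes, isoforms annotated as protein-coding held less than 50% of the gene's TPM in every library, and for 2 genes they held more than 50% in every library. The median protein-coding share was 29.8% over the 10 genes, against 59.4% over 8524 protein-coding genes with a mean expected count of at least 50. In the 8 hnRNP genes with an annotated NMD isoform the median share of NMD isoforms was 18.9%, against 5.70% over 2777 genes. Retained-intron isoforms had a median share of 40.9% in the 8 hnRNP genes that have them, close to 41.0% over 5601 genes. By expected counts, with no division by isoform length, the median protein-coding share was 47.4% in the hnRNP genes and 80.6% in all genes, with 4 of the 10 below 50% in every library and 4 above. By that measure the median retained-intron share was 21.6% in the hnRNP genes and 25.4% in all genes, and the median NMD share 16.7% in the hnRNP genes and 3.11% in all genes.

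**Figure D2:**
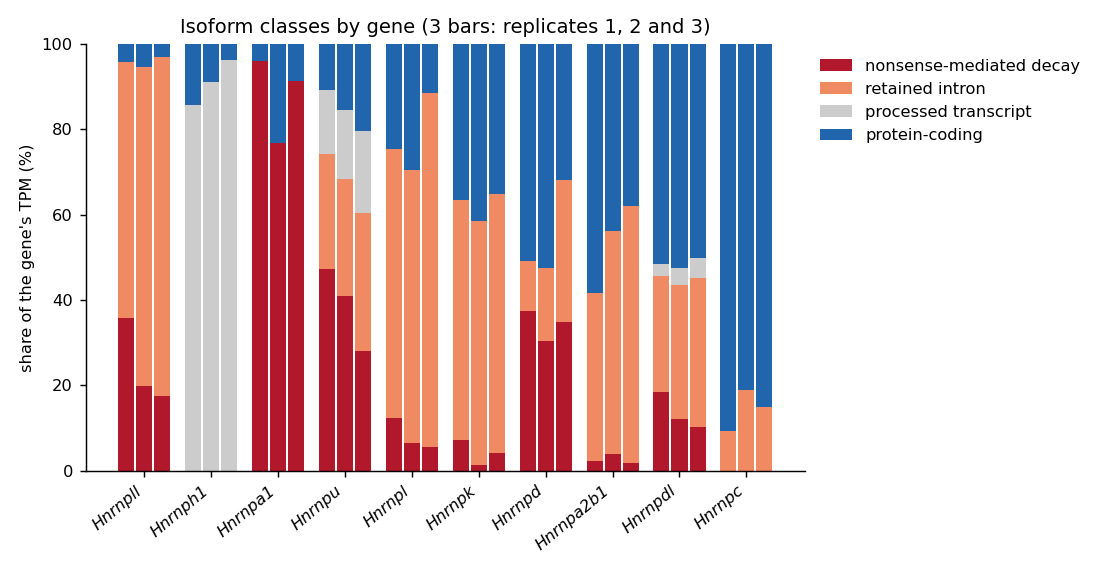
Share of each gene's TPM (%) in isoforms annotated as NMD, retained intron, processed transcript or protein-coding, with 1 bar per library (replicates 1, 2 and 3 from left to right) and genes in order of protein-coding share. Hnrnpa1 is mostly NMD isoforms, Hnrnpl and Hnrnpll mostly retained-intron isoforms, and Hnrnpc mostly protein-coding isoforms.

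The ratio of retained-intron over protein-coding isoforms (log2 of summed TPM + 0.1) was tested against 0 with limma in 5598 genes. At a Benjamini-Hochberg adjusted p below 0.05, the numerator was higher in 19.4% of genes and lower in 29.8%. Of 8 hnRNP genes tested it was higher in 3 (Hnrnpll, Hnrnpl and Hnrnpu), lower in 1 (Hnrnpc) and not called in 4. The median log2 ratio was 0.37 in the 8 hnRNP genes and -0.23 in all genes tested. Hnrnpa1 and Hnrnph1 have no annotated retained-intron isoform and were not in this test.

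Hnrnpll had the highest retained-intron ratio of the 8. Its retained-intron isoforms summed to 46.9, 55.1 and 83.3 TPM, against 3.23, 4.01 and 3.12 TPM for its protein-coding isoforms. The classes did not overlap in any library. The log2 ratio was 4.09 ± 0.32 (SE, limma adjusted p = 8.99e-04), above that of 99.3% of genes tested. In Hnrnpl the retained-intron isoforms had 37.5, 47.3 and 64.8 TPM, against 14.7, 21.8 and 9.04 TPM for protein-coding isoforms, a log2 ratio of 1.76 ± 0.41 (limma adjusted p = 0.0156). Without replicate 1 this call was lost (limma adjusted p = 0.0571), and with no count filter too (0.0523).

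In Hnrnpu the retained-intron isoforms had 19.7, 24.1 and 30.2 TPM and the protein-coding isoform 8.01, 13.8 and 19.1 TPM (log2 ratio 0.92 ± 0.28, limma adjusted p = 0.0396). That call did not hold without replicate 1 (adjusted p = 0.185) or without replicate 2 (0.144). It was also lost with a pseudocount of 0.01 (limma adjusted p = 0.0516), a mean count of at least 10 (0.0507) and no count filter (0.0507). Its direction turned to -3.06 when expected counts replaced TPM: Hnrnpu-202, its leading retained-intron isoform, has 673 nt and the protein-coding isoform Hnrnpu-201 has 7640 nt, and TPM divides reads by length. Hnrnpc went the other way, with 3.51, 10.4 and 9.19 TPM in retained-intron isoforms and 34.6, 44.3 and 52.0 TPM in protein-coding isoforms (log2 ratio -2.61 ± 0.33, limma adjusted p = 0.00258).

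The remaining members were not called. Hnrnpk had a log2 ratio of 0.62 ± 0.27, Hnrnpa2b1 of 0.12 ± 0.34, Hnrnpdl of -0.72 ± 0.27 and Hnrnpd of -1.21 ± 0.46, with limma adjusted p-values of 0.0991, 0.789, 0.0683 and 0.0747. With a pseudocount of 1 TPM, Hnrnpk (limma adjusted p = 0.0430), Hnrnpdl (0.0284) and Hnrnpd (0.0444) were called. With the other quantifier Hnrnpd was lower at -2.11 (limma adjusted p = 9.85e-04) and Hnrnpdl at -0.74 (0.0296). On expected counts Hnrnpd was lower at -4.41 (limma adjusted p = 1.76e-04), Hnrnpdl at -2.53 (4.63e-04) and Hnrnpk at -1.14 (0.0119). Without replicate 3 Hnrnpd was lower at -1.84 (limma adjusted p = 0.00893). In Hnrnpa2b1 the libraries differed in sign: retained-intron isoforms had 94.7, 154.9 and 194.2 TPM and protein-coding isoforms 141.0, 129.9 and 121.7 TPM, so that the retained-intron class was lower in replicate 1 only.

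NMD isoforms were seldom ahead of protein-coding isoforms in the genome as a whole. Of 2766 genes tested, the NMD class was higher in 4.05% and lower in 75.0% (limma, adjusted p below 0.05). It was higher in 3 of the 8 hnRNP genes tested (Hnrnpa1, Hnrnpll and Hnrnpu), lower in 4 (Hnrnpa2b1, Hnrnpdl, Hnrnpk and Hnrnpl) and not called in Hnrnpd. The median log2 ratio was -0.88 in the 8 hnRNP genes and -2.75 in all genes tested. Hnrnpc and Hnrnph1 have no annotated NMD isoform.

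Hnrnpa1 had the highest NMD ratio of the 8. Its NMD isoforms summed to 48.5, 35.6 and 45.6 TPM in replicates 1, 2 and 3, against 2.07, 10.7 and 4.30 TPM for its protein-coding isoforms. The NMD class was above the protein-coding class in each library, least so in replicate 2. The log2 ratio was 3.20 ± 0.60 (SE, limma adjusted p = 0.00678), above that of 99.3% of genes tested. Its protein-coding isoforms averaged 5.69 TPM, while the processed pseudogenes of similar sequence described below held 13.4 TPM. The effect of these copies on the ratio was not tested. Both NMD isoforms of Hnrnpa1 keep the stop codon of the leading coding isoform and carry further exons downstream of it. Hnrnpa1-203 (36.7, 20.5 and 26.7 TPM) splices past the long 3′ UTR exon to exons further downstream, which puts its last junction 90 nt after the stop codon. Hnrnpa1-204 (11.8, 15.1 and 18.8 TPM) keeps a longer form of that exon before the same downstream exons, with its last junction 1801 nt after the stop codon. The leading protein-coding isoform, Hnrnpa1-202 (2.07, 10.5 and 4.30 TPM), has its last junction 14 nt after the same stop codon.

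Hnrnpll followed, with 27.9, 14.6 and 18.2 TPM in its single NMD isoform Hnrnpll-203, against 3.23, 4.01 and 3.12 TPM in protein-coding isoforms (log2 ratio 2.47 ± 0.37, limma adjusted p = 0.00329). Hnrnpu had 34.8, 36.2 and 26.3 TPM in NMD isoforms, against 8.01, 13.8 and 19.1 TPM in Hnrnpu-201 (log2 ratio 1.32 ± 0.42, limma adjusted p = 0.0384). The Hnrnpu call was lost without replicate 1 (adjusted p = 0.142), without replicate 2 (0.0991), with a pseudocount of 0.01 (0.0689) and with no count filter (0.0662). On expected counts its log2 ratio was -0.20. Hnrnpu-206, which carries nearly all of the NMD level of this gene, lacks the start of the last exon of Hnrnpu-201, where the coding isoform has its stop codon. It uses instead a 71 nt exon from within that exon, ends its coding sequence there at another stop codon, and adds exons beyond, with its last junction 183 nt after the stop codon.

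The members with a lower NMD class were led by Hnrnpa2b1, where NMD isoforms had 5.37, 11.5 and 5.60 TPM and protein-coding isoforms 141.0, 129.9 and 121.7 TPM (log2 ratio -4.20 ± 0.37, limma adjusted p = 7.44e-04). Its leading protein-coding isoform, Hnrnpa2b1-202, averaged 40.5 TPM and has its last junction 157 nt after the stop codon, as have both NMD isoforms. The ratio of this gene thus rests in part on how the annotation classes that isoform. Hnrnpk had a log2 ratio of -3.41 ± 0.56 (limma adjusted p = 0.00435), Hnrnpdl of -1.95 ± 0.33 (0.00471) and Hnrnpl of -1.40 ± 0.38 (0.0234). The Hnrnpl call was lost without replicate 1 (adjusted p = 0.0551) and without replicate 2 (0.0945). In Hnrnpd the classes were close, with 11.7, 7.84 and 11.7 TPM in NMD isoforms and 15.9, 13.5 and 10.6 TPM in protein-coding isoforms (log2 ratio -0.36 ± 0.33, limma adjusted p = 0.361). With the other quantifier the NMD class of Hnrnpd was lower, at -1.13 (limma adjusted p = 0.00940), as it was on expected counts, at -1.47 (0.0180).

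**Figure D3:**
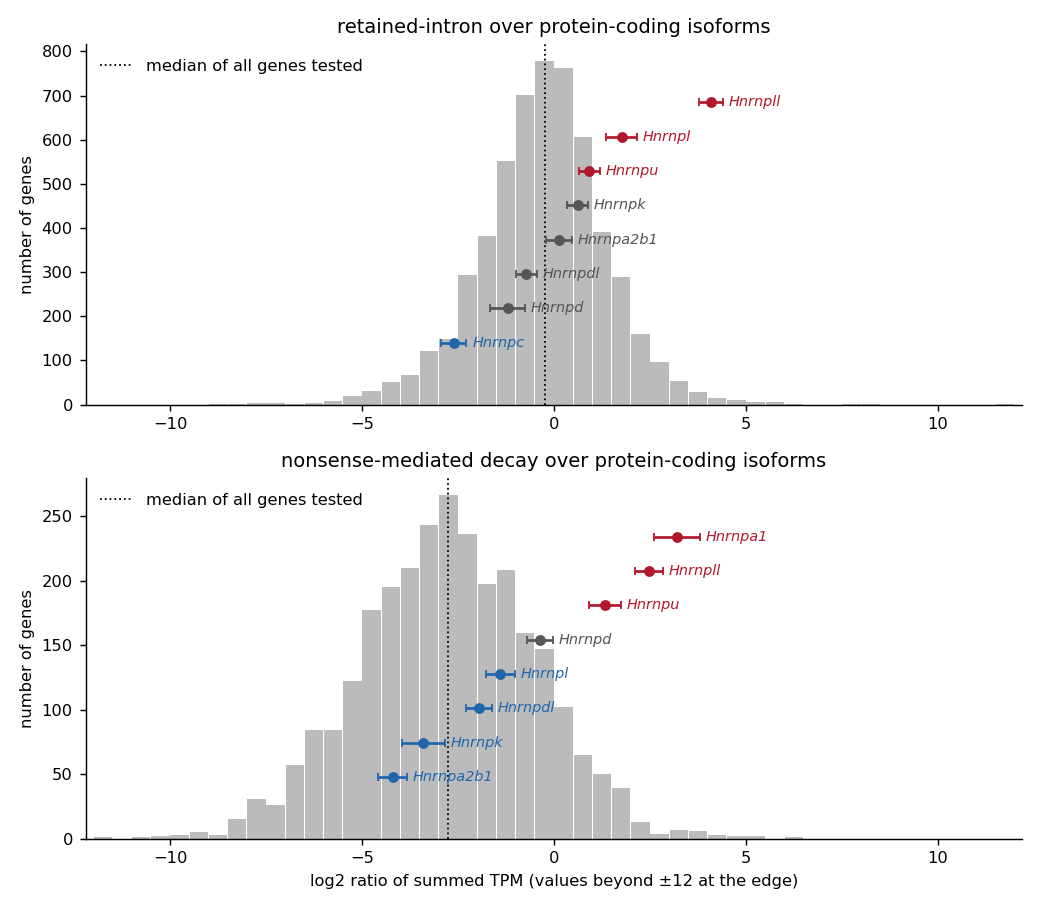
Distribution over all genes tested (grey bars, number of genes) of the log2 ratio of retained-intron over protein-coding isoforms (top) and of NMD over protein-coding isoforms (bottom). Points are hnRNP genes with their SE, red where the numerator was higher, blue where it was lower and dark grey where there was no call; their height has no meaning. The dotted lines mark the medians of all genes at -0.23 and -2.75, and Hnrnpll at 4.09 and Hnrnpa1 at 3.20 lie far to the right of them.

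Hnrnph1 has 15 isoforms annotated as processed transcripts and neither a retained-intron nor an NMD isoform. A ratio of all isoforms not annotated protein-coding over protein-coding ones was therefore added after seeing the data. These isoforms of Hnrnph1 had 92.4, 97.4 and 137.4 TPM, against 15.5, 9.60 and 5.39 TPM for its protein-coding isoforms (log2 ratio 3.52 ± 0.45, limma adjusted p = 0.00276). Over 7221 genes that numerator was higher in 21.9% and lower in 30.6%. It was higher in 5 of the 10 hnRNP genes (Hnrnpa1, Hnrnph1, Hnrnpl, Hnrnpll and Hnrnpu), lower in Hnrnpc and not called in 4. In this ratio the Hnrnpu call was lost on expected counts (log2 ratio 0.35, limma adjusted p = 0.371). The Hnrnpl call was lost without replicate 1 (limma adjusted p = 0.0503). The leading isoforms of Hnrnph1 were Hnrnph1-207 (11.7, 22.1 and 35.2 TPM) and Hnrnph1-204 (13.5, 22.0 and 31.7 TPM). Both read through the donor of intron 5, as does Hnrnph1-205, and the 3 together held 46.6% ± 13.2 of the gene's TPM.

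All 18 NMD isoforms of the 10 genes have an exon junction more than 50 nt after the stop codon, against 1 of 41 protein-coding isoforms with an annotated stop codon. The exception is Hnrnpa2b1-202, the leading protein-coding isoform of its gene. Of 37 retained-intron isoforms, 36 read through a splice site that a protein-coding isoform uses, extending at least 10 nt to either side, as did 31 of 57 protein-coding isoforms and 10 of 18 processed transcripts. Reading through such a site is thus not particular to the retained-intron class. The median length of retained-intron isoforms was 766 nt, with 1200 nt for NMD isoforms and 1728 nt for protein-coding isoforms. The position of the stop codon belongs to how the annotation defines NMD isoforms and is given as a description.

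Hnrnpl and Hnrnpll carried their NMD exon and a leading retained-intron isoform in the same intron. In both genes this intron lies between coding exons of 73 and 72 nt. In Hnrnpl (plus strand, chromosome 7) it is intron 7 of Hnrnpl-211, of 3108 nt, and the NMD isoform Hnrnpl-213 places in it an extra exon of 70 nt (chr7:28817335-28817404). In Hnrnpll (minus strand, chromosome 17) it is intron 6 of Hnrnpll-205, of 4042 nt, with an extra exon of 83 nt in Hnrnpll-203 (chr17:80044940-80045022). Human HNRNPL is known to regulate its own splicing, and that of HNRNPLL, through such exons. The stretches from the start of each extra exon to its in-frame stop codon are shown because they are what makes these isoforms NMD isoforms; capitals mark the stop codon, on build mm10, 5′ to 3′ in the sense of the gene.
Hnrnpl-213, chr7:28817335-28817393: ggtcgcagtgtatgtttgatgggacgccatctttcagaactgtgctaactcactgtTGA
Hnrnpll-203, chr17:80044976-80045022: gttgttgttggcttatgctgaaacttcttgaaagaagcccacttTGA

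The retained-intron isoforms at that intron read through the donor of the 73 nt exon. Hnrnpl-206 does so in Hnrnpl, with 11.1, 15.1 and 19.9 TPM and, together with Hnrnpl-212, 21.5% ± 3.54 of the gene's TPM. At the other end of the intron Hnrnpl-205 reads through the acceptor, with 10.3, 15.3 and 18.4 TPM or 20.5% ± 3.12. The NMD isoform Hnrnpl-213 had 7.35, 4.76 and 4.35 TPM, 8.12% ± 3.70 of the gene. In Hnrnpll the read-through isoform Hnrnpll-207 had 14.3, 19.8 and 29.6 TPM, 24.5% ± 5.36 of the gene, close to the 24.3% ± 9.97 of the NMD isoform Hnrnpll-203. A further retained-intron isoform, Hnrnpll-204, reads through the donor of intron 8 and had 15.8, 17.5 and 25.2 TPM. In both genes the NMD isoform was highest in replicate 1 and the read-through isoforms were highest in replicate 3.

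These donors are shown beside those of the leading retained-intron isoforms of Hnrnpk and Hnrnpc, as 15 exonic and 15 intronic bases. Capitals mark the GT that starts the intron, and each sequence is read through, not spliced, in the isoform named.
Hnrnpl-206, chr7:28815338-28815367 (plus strand): acctcagtggacaagGTaatcctgatggct
Hnrnpll-207, chr17:80048593-80048622 (minus strand): atttgggaagacgagGTaggtattttacga
Hnrnpk-204, chr13:58399141-58399170 (minus strand): gctctccgtacagacGTaagtattaaacta
Hnrnpc-208, chr14:52084100-52084129 (minus strand): ctggccaggttttagGTgagtttgtttgtt

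Hnrnpk-204 was the leading retained-intron isoform of Hnrnpk, at 18.8, 25.9 and 30.9 TPM, and reads through the donor of intron 6. Counting only isoforms not annotated protein-coding, the site of Hnrnpk with the most read-through was the acceptor of intron 14, of 207 nt. There 5 isoforms summed to 30.9, 35.7 and 35.1 TPM, or 24.1% ± 0.906 of the gene. Hnrnpc-208 had 3.51, 7.04 and 5.05 TPM. Hnrnpu-202, at 16.5, 19.2 and 26.2 TPM, reads through the acceptor of intron 1 and the donor of intron 3. Its sites are shown because it carries most of the retained-intron level of Hnrnpu; capitals mark the AG that ends intron 1 and the GT that starts intron 3.
Hnrnpu-202 acceptor, chr1:178336144-178336173 (minus strand): tctgtgtcgttatAGgagacggcaaaacag
Hnrnpu-202 donor, chr1:178335867-178335896 (minus strand): tttgtcttgatacttGTaagtgaggcggac

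In Hnrnpa2b1 the leading retained-intron isoform, Hnrnpa2b1-208, reads through the donor of intron 10, which is not next to coding sequence, and had 41.6, 66.1 and 86.9 TPM, while the leading protein-coding isoform Hnrnpa2b1-202 had 52.7, 29.5 and 39.3 TPM. The NMD isoform Hnrnpa2b1-207 ends its coding sequence at the stop codon of a protein-coding isoform and reached 4.67, 4.82 and 5.60 TPM. Hnrnpd-208, the leading NMD isoform of Hnrnpd at 8.37, 5.06 and 8.96 TPM, also keeps a coding isoform's stop codon, with its last junction 137 nt beyond it. In Hnrnpdl the protein-coding isoform Hnrnpdl-207 led with 24.1, 23.6 and 32.2 TPM, and both retained-intron isoforms read through intron 6, of 285 nt, at 31.2% ± 3.76 of the gene's TPM. The leading NMD isoforms of the 8 genes thus had different layouts. The stop codon lay in an extra exon in Hnrnpl and Hnrnpll, was that of a protein-coding isoform in Hnrnpa1, Hnrnpa2b1 and Hnrnpd, and lay in an exon overlapping protein-coding exons in Hnrnpdl, Hnrnpk and Hnrnpu.

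**Figure D4:**
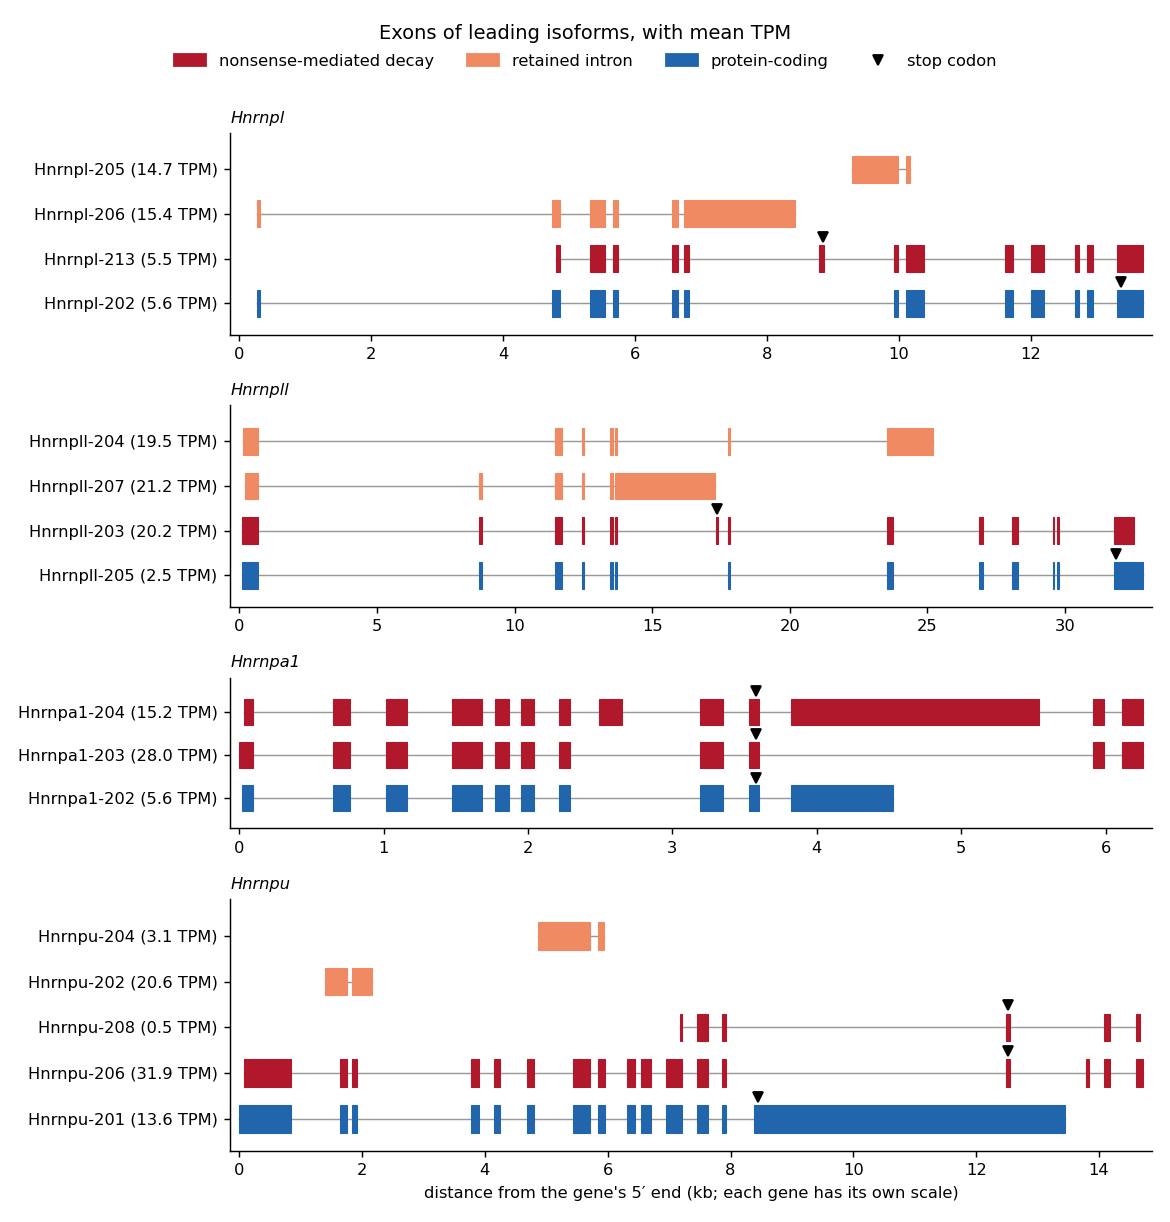
Exons (boxes) of the leading NMD, retained-intron and protein-coding isoforms of Hnrnpl, Hnrnpll, Hnrnpa1 and Hnrnpu by distance from the gene's 5′ end (kb), with mean TPM in brackets; triangles mark annotated stop codons. In Hnrnpl and Hnrnpll the NMD exon falls in the intron whose start the long retained-intron exon covers, and in Hnrnpa1 the NMD isoforms have further exons after the stop codon.

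The share of isoforms not annotated protein-coding depended on whether reads were divided by length. By TPM the 10 genes had a median share of 70.2%, against 46.8% over 7232 genes. For Hnrnpll the share was 95.8% ± 1.23 by TPM, 96.7% ± 0.466 with the other quantifier and 96.0% ± 1.10 by expected counts. Hnrnph1 had 91.0% ± 5.29, 93.4% ± 4.54 and 89.1% ± 6.92 in that order, and Hnrnpa1 88.1% ± 9.92, 81.3% ± 6.34 and 89.6% ± 8.25. These 3 genes therefore had a high share by each measure. Hnrnpu had 84.4% ± 4.76 by TPM but 55.9% ± 10.1 by expected counts, and Hnrnpk 62.3% ± 3.34 by TPM but 32.7% ± 4.70. Hnrnpc was lowest by each measure, at 14.4% ± 4.91, 8.46% ± 2.15 and 3.48% ± 1.04.

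**Figure D5:**
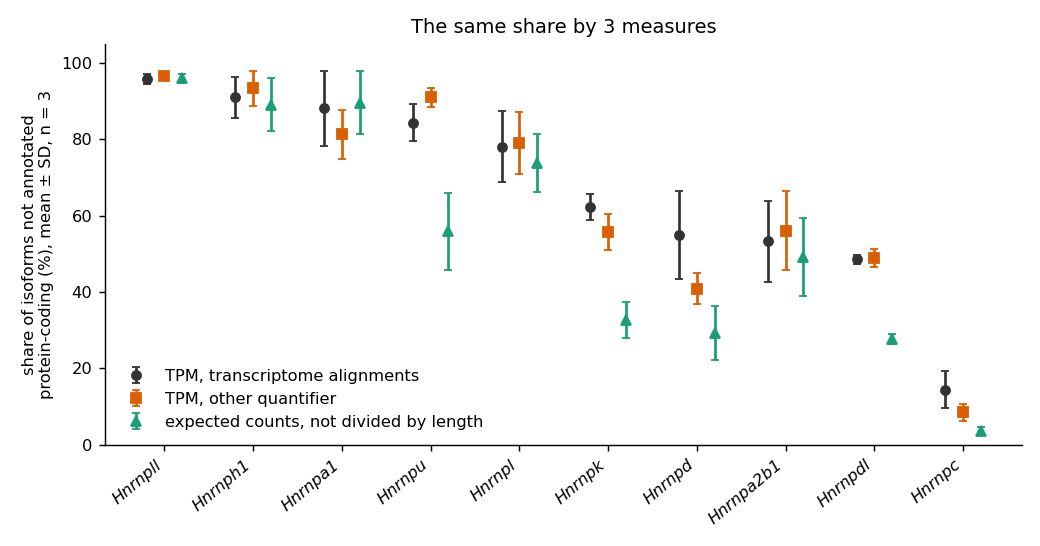
Share (%) of each hnRNP gene in isoforms not annotated protein-coding, as mean ± SD over 3 libraries, by TPM from transcriptome alignments (circles), TPM of the other quantifier (squares) and expected counts not divided by length (triangles). The measures lie close together in Hnrnpll at 95.8% by TPM, and furthest apart in Hnrnpu, at 84.4% by TPM, 91.0% with the other quantifier and 55.9% by expected counts.

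The isoform make-up also moved with the library. The retained-intron share was lowest in replicate 1 in 8 of 8 hnRNP genes and highest in replicate 3 in 7 of 8. Over 5601 genes, 50% were lowest in replicate 1 and 67.7% highest in replicate 3. The NMD share was highest in replicate 1 in 7 of 8 hnRNP genes, while 55.4% of 2777 genes were counted as highest there. A tie was counted for the first of the tied libraries. Genes with a class at 0 in all libraries thus counted as both lowest and highest in replicate 1. The 50% and 55.4% for replicate 1 are therefore upper bounds. Over all genes the median retained-intron share was 37.7%, 37.7% and 47.5% in replicates 1, 2 and 3. The high value in replicate 3 was thus common to most genes, while the hnRNP median was 33.3%, 41.9% and 47.6% in the same order and differed between replicates 1 and 2 as well.

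Gene-level counts of the hnRNP genes varied less between libraries than those of most genes. A chi-square test of rounded expected counts against trimmed-mean (TMM) scaled expectation called 68.1% of 14200 genes at a Benjamini-Hochberg adjusted p below 0.05, and 9 of the 10 hnRNP genes. The coefficient of variation beyond counting error had a median of 8.14% over the 10 genes and 19.9% over all genes tested. Over 21 other hnRNP-related genes the median was 13.3%, also below that of all genes. The median was 129% for the mitochondrially encoded genes and 64.3% for the ribosomal protein genes. Hnrnpk had the highest value, 19.1% (TMM-scaled counts 3678, 3157 and 2490), followed by Hnrnpdl at 18.2% (2533, 1747 and 2169). Hnrnpu was not called, with scaled counts of 4893, 4894 and 4918 (chi-square adjusted p = 0.962), but was called with library totals (10.8%) and with the other quantifier (13.3%). Without replicate 1 the test called 5 of the 10 hnRNP genes and 47.8% of all genes. Which library was high depended on the scale: 9 of the 10 genes had their highest TPM in replicate 3, while 8 had their highest TMM-scaled count in replicate 1.

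Of 23 further hnRNP-related genes, 14 reached at least 10 TPM in every library. Their median was 21.7 TPM. Among the most abundant were Hnrnpm at 122.3 ± 24.5 TPM and Pcbp2, a poly(C)-binding protein, at 98.1 ± 7.15 TPM. Ralyl was at 0 in all libraries. Of these genes, 13 were in the retained-intron test. The retained-intron class was lower in Hnrnpa3, Hnrnpul1, Syncrip and Pcbp2 (limma, adjusted p below 0.05). In the NMD test 7 of 8 were lower (Hnrnph3, Hnrnpr, Syncrip, Ptbp1, Ptbp2, Ptbp3 and Matr3), none was higher, and Rbmx was not called at 0.19 ± 0.29 (limma adjusted p = 0.565). In the added ratio Ptbp1 was higher and Hnrnpa3, Hnrnpul1 and Pcbp2 lower.

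For each hnRNP gene the protein-coding gene of most similar isoform make-up was the one at the smallest Euclidean distance over 12 shares (4 classes in 3 libraries), among genes with the same classes and a mean count of at least 200. The closest match was that of Hnrnpc with Braf, at a distance of 3.18 percentage points against a median of 73.8 over 1167 candidates. Hnrnpa2b1 was closest to Tmem67 (4.10), Hnrnpk to Mau2 (5.03), Hnrnph1 to Orc3 (6.88) and Hnrnpd to Ly9 (10.2). Hnrnpl was closest to Nup88 (11.4), Hnrnpu to Prpf4b (11.7), Hnrnpdl to Rev1 (12.4), Hnrnpll to Slc4a7 (16.4) and Hnrnpa1 to Gm45140 (27.3, of 130 candidates). The match of Hnrnpa1 was the most distant: its NMD share of 88.1% had its nearest neighbour at 97.9%, in a gene of 2.23 TPM.

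Some hnRNP reads could belong to copies or to overlapping genes. Processed pseudogenes of at least 90% identity over 300 nt numbered 17 for Hnrnpa1. These held 11.80, 15.01 and 13.46 TPM, or 27.4% of the Hnrnpa1 level, so the level of Hnrnpa1 and its isoform ratios are uncertain. With the other quantifier the same copies held 27.5 TPM and Hnrnpa1 36.4 TPM, a share of 75.6%. The highest was Gm6296 at 6.33 TPM, and Hnrnpa1l2-ps and Hnrnpa1l2-ps2 were at 0. Hnrnpk had 3 such copies, led by Gm7964 at 3.24 TPM. On the opposite strand, AC122253.3 overlaps Hnrnpll with 14.3 TPM, Rmi1 overlaps Hnrnpk with 4.04 TPM, Cox20 overlaps Hnrnpu with 3.56 TPM, Gm44702 overlaps Hnrnpl with 2.60 TPM and Gm17092 overlaps Hnrnpd with 1.11 TPM. No source used here gives the strand setting of the counting, so reads of these pairs may be exchanged. Mir7-1 and Gm22215, short RNAs inside Hnrnpk and Hnrnpll, were at 0 TPM in the main tables and at 64.2 and 42.5 TPM with the other quantifier.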

How the data were processed

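Each of the 3 libraries of chromatin-fraction total RNA has 3 tables. Gene and transcript tables of expected counts (reads shared out among features) with TPM were deposited by the authors, made from transcriptome alignments to mm10 with annotation M21, per the deposited note and file headers. The authors also deposited transcript-level TPM and estimated counts computed from the reads themselves, called the other quantifier. The posterior SD of counts and the percent share of each isoform, both deposited by the authors, were not used for any value given. No source used here names the aligner, the quantifiers, their versions or the strandedness. Depth was 19919358 to 22023921 expected counts.

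Symbols, biotypes and coordinates came from GENCODE M21, and isoform sequences from its transcripts. The log2 ratios used a pseudocount of 0.1 TPM, a mean count of at least 50 and limma 3.58.1 (moderated test, Benjamini-Hochberg over all genes tested); variation used rounded expected counts with a mean of at least 10 and TMM factors from edgeR 4.0.16, and DESeq2 1.42.0 size factors as an alternative. Both tests were tested on simulated data. Pseudogenes were found with BLAST 2.17.0. The genes, lists and comparisons were chosen with earlier results of these data known. Named are the 10 genes, their leading isoforms by class, the highest and the lowest of 23 further hnRNP-related genes and those called (some results for these are not reported here), the nearest gene in isoform make-up, and overlapping genes and pseudogenes. Isoforms named for a splice site and other cell markers were chosen after their values were seen.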

Additional observations from a re-analysis of the deposited data

How the results depend on the processing

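No paired analysis was possible because the 3 libraries form 1 group. Every isoform call of Hnrnpa1, Hnrnph1, Hnrnpll and Hnrnpc held under the pseudocounts, count filters, quantifiers, expected counts and omissions of a library that were run. The effect of pseudogene copies on the Hnrnpa1 calls was not tested. The retained-intron class was higher in 1874 genes with the other quantifier, and lower in 3270 with expected counts. The hnRNP genes in which it was lower numbered 3 of 8 with a pseudocount of 1 (30.7% of all genes), 3 with the other quantifier (30.4%), 2 at a mean count of at least 200 (33.4%) and 5 with expected counts (58.4%). Those in which it was higher numbered 1 with no count filter (1014 of 8085 genes). On expected counts the retained-intron log2 ratio reversed in Hnrnpu (-3.06), Hnrnpk (-1.14) and Hnrnpa2b1 (-0.14), and the NMD ratio in Hnrnpu (-0.20). The NMD class was higher in 245 genes with the other quantifier. In the added ratio of all other isoforms, 3006 genes were higher with the other quantifier; with expected counts 1034 genes were higher and 4264 lower, 4 hnRNP genes were lower, and the ratio reversed in Hnrnpa2b1 (-0.05), Hnrnpd (-1.29) and Hnrnpk (-1.05). With the other quantifier it reversed in Hnrnpd (-0.53). By expected counts, added after seeing the data, the median share in the hnRNP genes moved to 47.4% for protein-coding, 21.6% for retained-intron and 52.6% for all other isoforms. The cause was not tested.

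Leaving out 1 library gave 630 to 951 genes higher and 936 to 1824 lower for the retained-intron class, with 1 to 3 hnRNP genes higher and 1 to 2 lower. For the NMD class it gave 68 to 91 genes higher, and for all other isoforms 989 to 1509 higher and 1441 to 2115 lower. The log2 ratio of Hnrnpa2b1 ranged over -0.16 to 0.46 for retained introns and -0.07 to 0.54 for all other isoforms, and that of Hnrnpd over -0.09 to 0.52 for all other isoforms, each reversed without replicate 3. Without 1 library 5 to 8 hnRNP genes and 46.1% to 54.3% of all genes were called for variation. The median log2 level of the further hnRNP-related genes minus that of the 10 was -1.83, and -1.52 with the other quantifier. With 1 library left out, each test rests on 2 values.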
